A study of Mus musculus with 48 samples.

Results

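The m6A marks of hippocampal RNA were compared between trained and naive Hdh+/Q111 (KI) mice of 5 months. The comparison was taken by its condition labels and holds the m6A-IP peak lists of 6 mice, 3 trained and 3 naive, out of 24 such lists in the series. KI mice are heterozygous for an expanded CAG repeat in Hdh, the mouse huntingtin gene Htt, and carry it in every cell (labelled HdhQ7/Q111), while WT mice are HdhQ7/7. All groups are male mice on a C57BL/6 background. Trained mice were habituated to an arena, given object location training (OLT), in which they learn where objects stand, and sacrificed 30 min later, and naive mice were not trained. Trained and naive WT mice of 5 months and KI mice of 8 months, 3 animals in each group, were used to set the response of the KI mice of 5 months beside its nearest counterparts. The tissue is whole hippocampus, so neurons, glia and any adjoining tissue contribute RNA, and fewer cells of a type cannot be told apart from less RNA per cell. No animal is in more than 1 group.

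N6-methyladenosine (m6A) is a methyl mark that the METTL3-METTL14 complex places on adenosines of mRNA, often within the motif GGAC and mainly in coding sequence (CDS) and 3'UTR near the stop codon. FTO and ALKBH5 can remove it, and reader proteins such as the YTHDF family bind it and influence the decay and translation of the mRNA. In the brain many methylated mRNAs encode synaptic proteins, and the immediate-early genes, which neurons transcribe within minutes of activity, give short-lived mRNAs that carry m6A. In MeRIP-seq, RNA fragments are pulled down with an antibody against m6A (IP) and compared with the RNA before pull-down (input). 2 readouts of this comparison were available. One is the fold enrichment of IP over the input of the same animal at each peak. The other is a table deposited by the authors with the mean m6A-IP level of each group, on the log2 scale, for regions that the authors' own test of this contrast had selected. That table is therefore a description of chosen regions and not a test.

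The number of m6A peaks did not separate trained from naive KI mice. Naive animals had 40799, 36258 and 32710 peaks and trained animals 36588, 32076 and 37964, and the groups overlapped (means 36589 and 35543, 2-sided exact permutation test p = 0.8, n = 3; 3 against 3 animals cannot give a p under 0.1). Across all 24 animals the number lay between 22601 and 57293. Peaks of the 24 animals were joined into 81807 regions, of which 54279 held a peak in at least 1 of the 6 KI animals and 18860 in all 6. Of the summits inside protein-coding genes, 36.1% ± 1.85 lay in CDS in naive and 37.6% ± 2.74 in trained KI mice (SD, n = 3), and 35.5% ± 2.96 and 33.3% ± 4.19 in introns (exact permutation test, p = 0.6 for each, adjusted p = 0.8 over the 4 transcript parts). The share of summits with GGAC within 50 bp on the transcribed strand was 40.5% ± 1.68 in naive and 41.8% ± 0.972 in trained mice (SD, n = 3, exact permutation test p = 0.5). Windows moved by 1000 bp within the same genes held GGAC in 26.1% to 26.8% of cases. The median fold enrichment of all peaks was 4.57, 4.91 and 4.85 in the naive animals and 4.93, 5.21 and 5.04 in the trained ones. Those values did not overlap between groups, at the smallest p the design allows (0.1, exact permutation test, n = 3). Trained animal 2 stood apart, with a highest fold enrichment of 63.9 against 27.3 to 34.8 in the other 5 animals and 8.87% of genic summits in 5'UTRs against 5.83% to 6.37%. Over the 18860 regions its fold enrichment correlated with that of the other animals at Spearman's rho of 0.508 to 0.636, while the other pairs lay between 0.603 and 0.723.

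Markers of hippocampal neurons carried m6A peaks in every animal. Of 8 markers of CA1 neurons 7 had a peak in each of the 6 animals, as had 10 of 13 markers of dentate granule cells and 5 or 6 of 8 markers of CA3 neurons. Oligodendrocyte markers had a peak for 12 to 14 of 15 genes and astrocyte markers for 8 to 11 of 13. Of 10 markers of the choroid plexus, a tissue that borders the hippocampus, 5, 5 and 8 had a peak in the naive animals and 4, 3 and 5 in the trained ones, and Ttr and Aqp1 had none in any of the 6.

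The sequences below show the GGAC nearest to the strongest summit in regions on which the later results turn, with 25 bases of mm9 read on the transcribed strand and GGAC in capitals. A match describes the letters at the summit and does not show that this adenosine is methylated. The opening set holds immediate-early regions with higher m6A-IP levels in trained mice, followed by the distal Homer1 region, whose level was lower.
Egr2, CDS, chr10:67002958-67002982, plus strand: agccagctatGGACccaggtctcat
Fosb, 5'UTR, chr7:19895112-19895136, minus strand: tcatttcttgGGACgcttcgacagg
Maff, 3'UTR, chr15:79188877-79188901, plus strand: cagtaccccgGGACtgaataacatg
Atf3, 3'UTR, chr1:192994637-192994661, minus strand: aacagaggatGGACgacacctttcc
Arc, 3'UTR, chr15:74501536-74501560, minus strand: ttgccaactaGGACttgagctgggg
Fos, 3'UTR, chr12:86817552-86817576, plus strand: tgggcctcaaGGACttgcaagcatc
Bdnf, CDS, chr2:109563662-109563686, plus strand: ccaggtgtgcGGACccatgggactc
Homer1, 3'UTR, chr13:94173197-94173221, plus strand: caagccgagaGGACtgcatctaaat
The next set holds intronic regions of Dlg4 and Stx16 with lower levels in trained mice, and regions with the smallest p for fold enrichment.
Dlg4, intron, chr11:69842120-69842144, plus strand: tgaaggtggaGGACtgagactgggg
Stx16, intron, chr2:173902257-173902281, plus strand: ggggtctccaGGACgtttgatttcg
C2cd4d, CDS, chr3:94167514-94167538, plus strand: ctcggctccgGGACccaagaggcgc
Pgpep1, 3'UTR, chr8:73173345-73173369, minus strand: catgtgacctGGACtccttccaaga
Ighmbp2, CDS, chr19:3261542-3261566, minus strand: gcaggcagtgGGACcaaggacaggg
GGAC stood within 50 bp of the strongest summit in 38.4% of the 39679 regions that were called in at least 1 of the 6 animals and lie in exactly 1 gene, and in 46.5% of the 14739 called in all 6. Among the regions of the authors' table the share was 42.5% where the trained mean was higher by over 1, 49.8% where it was higher by up to 1, 36.7% where it was lower by up to 1 and 28.7% where it was lower by over 1. All searches used the transcribed strand and 50 bp on each side of the summit.

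The deposited table lists 7830 regions of KI mice of 5 months, and regions with a higher and with a lower m6A-IP level in trained mice were about equally many. In trained mice the mean level was higher in 3949 regions (50.4%) and lower in 3881. Larger differences leaned to lower levels: 154 regions (1.97%) were higher by over 1 on the log2 scale and 775 (9.90%) were lower by over 1. The direction of the columns was set against the peak calls, since in 478 of the 775 regions more naive than trained animals had a peak and in 35 more trained than naive ones, whereas of the 154 higher regions 98 were called in more trained and 8 in more naive animals. Introns held 59.6% of the regions lower by over 1 and 44.2% of those higher by over 1, against 42.6% of those lower by up to 1 and 17.1% of those higher by up to 1. CDS and 3'UTR together held most of the last class, with 43.9% and 28.1%. By transcript part, 64.7% of the 2611 listed CDS regions and 64.0% of the 1691 listed 3'UTR regions were higher in trained mice, against 41.3% of the 433 in 5'UTRs and 28.7% of the 2504 in introns. The median difference was 0.23 in CDS and -0.56 in introns.

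**Figure D1:**
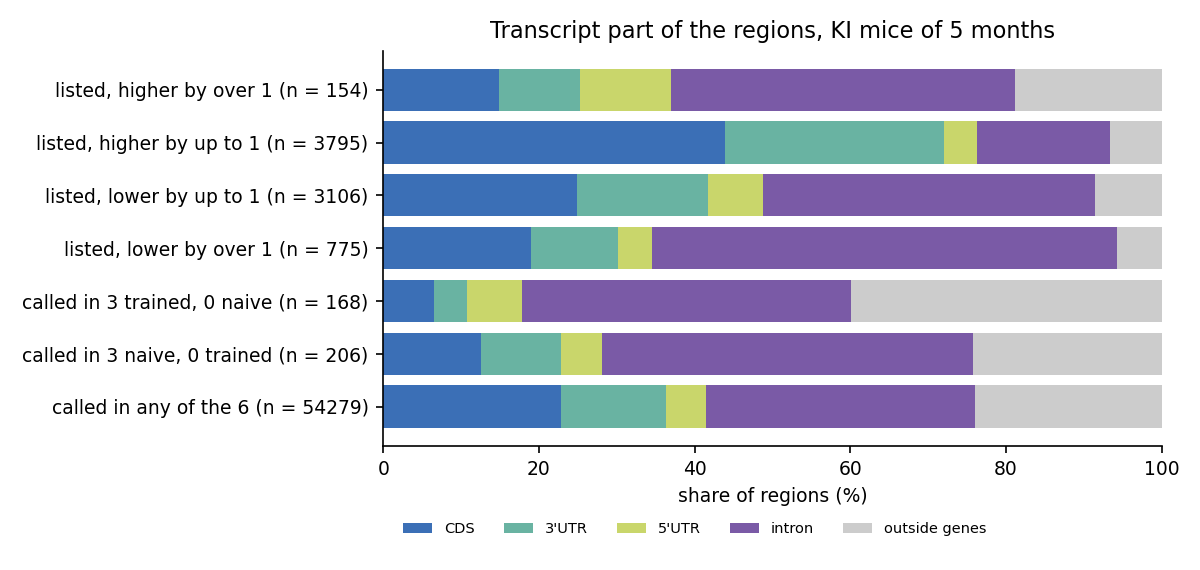
Share of regions (%, horizontal axis) by transcript part for 4 classes of listed regions, for the regions called in all animals of only the trained or only the naive group, and for all regions called in any of the 6 KI mice of 5 months. Introns (purple) held 59.6% of the listed regions lower and 44.2% of those higher by over 1 in trained mice, and 42.6% and 17.1% of those lower and higher by up to 1.

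Direction also went with the level itself. Of the 4623 listed regions whose mean of the 2 group means was under 10, 32.9% were higher in trained mice, and of the 3207 at 10 or above, 75.6% were higher. Several gene lists are therefore given below within these 2 ranges or within exons as well as over all listed regions. Whether level or transcript part accounts for a list's direction was not tested.

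Immediate-early genes stood on the higher side of the table. Of 38 genes 34 had a listed region, and of their 48 regions 44 (91.7%) had a higher mean level in trained mice, with a median difference of 0.47, against 50.3% and a median of 0.16 over the 6929 listed regions in exactly 1 gene. In exons 42 of 46 were higher, against 62.1% of all exonic regions. Below a level of 10, where 32.9% of all listed regions were higher, 15 of 18 immediate-early regions were higher, and above it 29 of 30. Of the 48 regions 5 were higher by over 1, against 154 of all 7830 listed regions (1.97%), and 1 was lower by over 1, against 775 (9.90%).

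Among transcription factors of this list, the CDS region of Egr2 (chr10:67002377-67004339) had a deposited mean level of 9.55 in naive and 11.45 in trained mice. Egr2 and its relatives are zinc finger factors that neurons induce with activity. For Fosb, a subunit of the AP-1 factor, the 5'UTR region went from 7.19 to 8.59 and the CDS region from 9.39 to 10.11, while a 3'UTR region had 7.33 in naive and 6.60 in trained mice. The Fos region (chr12:86816337-86817819) had 9.30 and 10.26, Junb 13.71 and 14.34, and Jun 16.56 and 16.80. Maff (6.91 and 8.22) and Atf3 (6.58 and 7.60), which dimerize with other leucine zipper proteins, had a low level with differences over 1. Egr4 had 12.47 and 13.14, the CDS region of Egr1 15.14 and 15.70, and the CDS region of the nuclear receptor Nr4a1 12.13 and 12.74. Npas4, a factor induced by calcium influx, had 11.41 and 11.82 in its CDS. Fosl2 and Per1 had differences of -0.36 and -0.45. Atf3, Jun, Fosl2 and Per1 lie outside the rule for named genes and were chosen after their values were seen.

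Synaptic and signalling members of the list followed, most of them higher in trained mice. Arc, which acts in endocytosis of AMPA receptors, had a mean level of 14.51 in naive and 15.49 in trained mice (chr15:74501046-74502967). The CDS region of Bdnf, the ligand of TrkB, had 14.33 and 14.75, and the phosphatase Dusp1, which turns off MAP kinases, had 11.43 and 11.87. Ier2 had 10.95 and 11.25, and Btg2 11.28 and 11.66. Homer1, whose long form links metabotropic glutamate receptors to the postsynaptic scaffold and whose short form is induced by activity, had regions on both sides. At an upstream 3'UTR of the annotation (chr13:94136221-94136795) naive mice had a mean level of 9.15 and trained mice 10.64. The distal 3'UTR (chr13:94173077-94173477) had 7.84 and 6.79. Its 5'UTR region had 14.05 and 14.31.

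**Figure D2:**
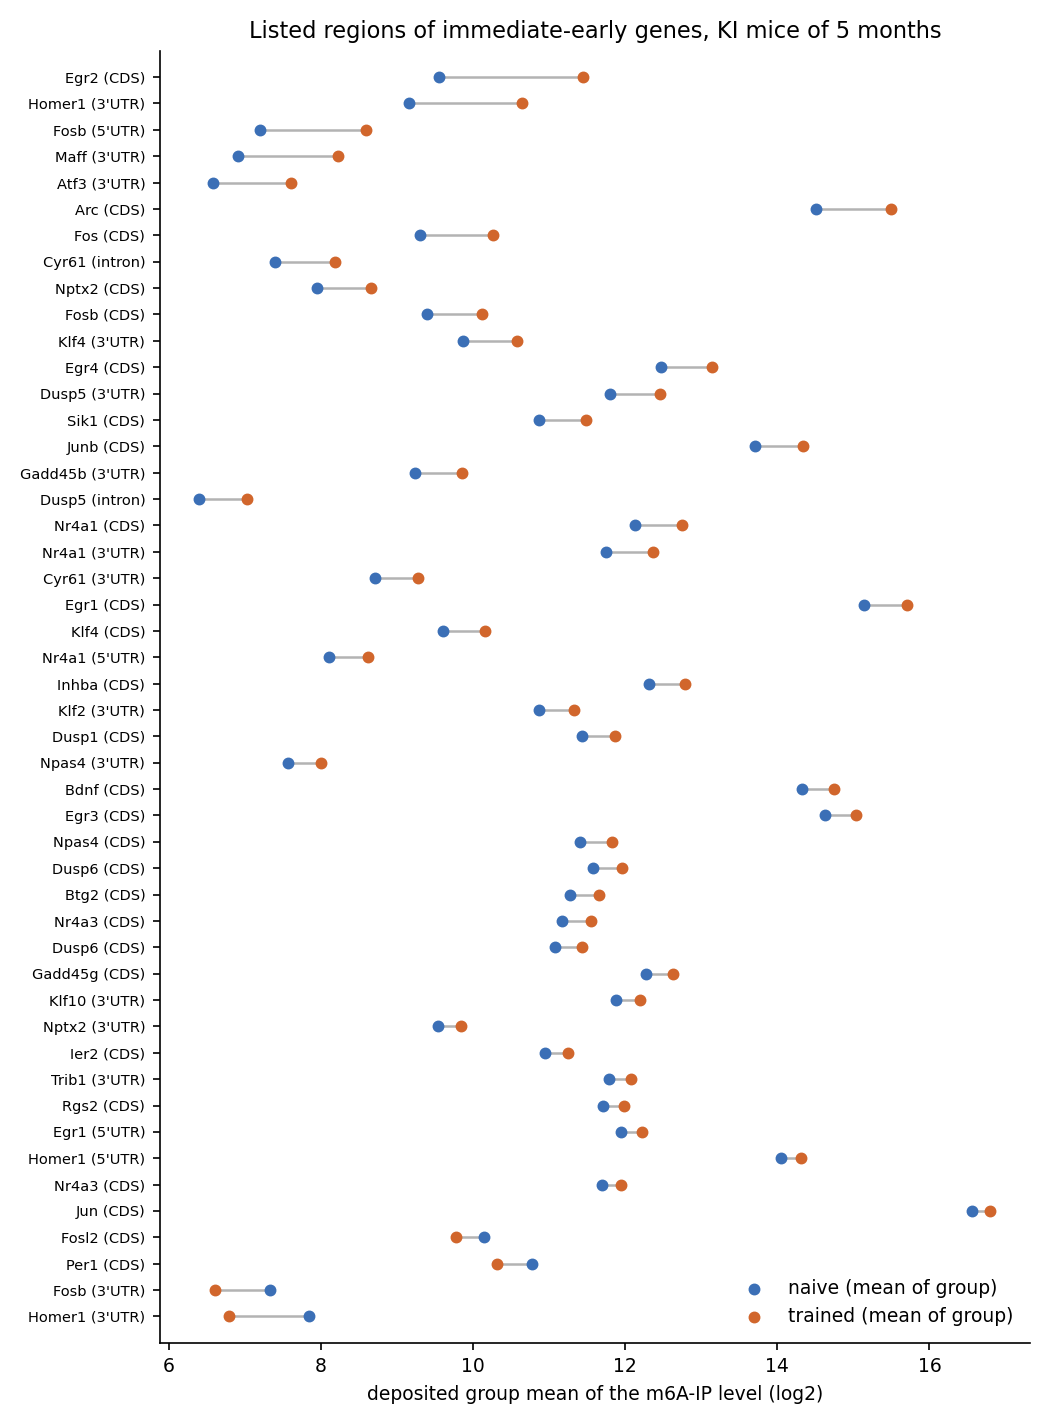
Deposited group means of the m6A-IP level (log2, horizontal axis) in naive (blue) and trained (orange) KI mice of 5 months for the 48 listed regions of immediate-early genes, ordered by the difference, with the transcript part at the centre of the region in brackets. The trained mean lies to the right of the naive mean in 44 regions, and the Homer1 gene holds both one of the largest positive differences and the largest negative difference.

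Fold enrichment over input showed no such lean in the same immediate-early regions. Of the 48 regions 44 held a peak in all 6 animals, and in 20 of these 44 the mean log2 fold enrichment, after centring each animal on its median, was higher in trained mice (median difference -0.039). In the Fos region the fold enrichment was 7.01, 2.2 and 5.59 in naive and 4.42, 2.29 and 7.84 in trained animals. In the Arc region it was 2.49, 4.14 and 3.15 in naive and 2.79, 2.16 and 3.24 in trained animals. The groups overlapped for both genes, and the range within a group exceeded the difference between the means. Egr2, with the largest difference in m6A-IP level of the list, had fold enrichments of 10.52, 9.34 and 11.30 in naive and 5.46, 11.05 and 6.41 in trained animals, so that 2 trained animals lay below all naive ones. For Ier2 the trained animals had 10.57, 9.31 and 8.63 and the naive ones 5.14, 5.05 and 9.52. Input libraries have no file among those used here, so the amount of these mRNAs was not analysed.

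Glutamate receptor genes lay mostly on the lower side. Of 24 genes 22 had a listed region, and 54 of 65 regions had a lower mean level in trained mice (median difference -0.74). The other 11 (16.9%) were higher, against 50.3% of all listed regions in exactly 1 gene. Of the 65, 20 were lower by over 1 and 1 higher by over 1, against 9.90% and 1.97% of all listed regions. Introns held 45 of the 65, of which 40 were lower and 5 higher, against 28.7% higher among all listed intronic regions. In exons 14 of 20 were lower, whereas 62.1% of all exonic regions were higher. Below a level of 10, where 32.9% of all listed regions were higher, 5 of 52 were, and at 10 or above, where 75.6% were, 6 of 13. An intron region of Grin2a, a subunit of the NMDA receptor, had a mean level of 10.38 in naive and 8.59 in trained mice, and another 9.67 and 8.16. Grid1, a delta receptor that binds presynaptic partners, had 9.13 and 7.11 in an intron, and the kainate receptor subunit Grik4 6.53 and 4.24. A 3'UTR region of the AMPA receptor subunit Gria3 had 4.39 in naive mice and -0.15, the lowest trained mean of the table, in trained ones. A peak was nevertheless called there in 2 trained animals, with fold enrichments of 2.46 and 2.14 against 2.47, 2.2 and 2.22 in naive animals.

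Scaffold and presynaptic genes lay near the share of all listed regions in introns, of which 28.7% were higher, and presynaptic exonic regions were more often lower. In the postsynaptic scaffold and adhesion list 18 of 68 intronic regions were higher in trained mice, as were 16 of 29 exonic regions, against 62.1% of all exonic ones. Dlg4, which encodes the scaffold PSD-95, had mean levels of 9.04 and 3.75 in an intron (chr11:69841893-69842528), with a peak in 3 naive and 1 trained animal. Shank1, a scaffold that binds Homer proteins, had 7.89 and 2.08 in one intron and 8.94 and -0.15 in another, although all 3 trained animals had a peak in each. In the presynaptic list 12 of 47 intronic and 6 of 18 exonic regions were higher. Below a level of 10, where 32.9% of all listed regions were higher, 6 of 43 presynaptic and 16 of 57 scaffold regions were. At 10 or above, where 75.6% were higher, 12 of 22 presynaptic and 18 of 40 scaffold regions were. The synaptic vesicle protein genes Syp (8.39 and 6.75) and Sv2b (8.4 and 6.95) and the adhesion gene Nrxn3 (6.45 and 4.63) each held an intronic region with a peak in 3 naive and 0 trained animals. The presynaptic list also held 3 regions called in 3 trained and 0 naive animals. Among them was an intron of Pclo, of the active zone (5.73 and 6.38), with fold enrichments of 5.22, 5.37 and 5.48. Pclo was chosen after its values were seen. Over all regions called in any of the 6 animals, 0.310% were called in 3 trained and 0 naive animals and 0.380% in 3 naive and 0 trained ones. The share within the list was not computed. At the Syp region the 3 naive fold enrichments were 3.06, 3.03 and 3.14. Erc2, of the active zone, had 2.63 and 6.78 at a region with a peak in 3 naive and 2 trained animals. Stx16, which encodes a SNARE protein of the trans-Golgi network, had 8.93 in naive and 3.94 in trained mice in an intron, with a peak in all 6 animals.

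Ion channel and GABA synapse genes were split. Of the listed regions of voltage-gated channel genes 10 of 54 in introns and 22 of 32 in exons were higher, against 28.7% and 62.1% of all listed regions in introns and exons. An intron of the potassium channel gene Kcnq5 had 6.20 and 4.22 with a peak in 3 naive and 0 trained animals, and an intron of Kcnip4, which modulates A-type potassium channels, had 5.40 and 6.82 with a peak in 0 naive and 3 trained animals. In the GABA synapse list 10 of 18 regions were higher (55.6%), against 50.3% of all listed regions in exactly 1 gene. An intronic region of Gad1, which makes GABA, had -0.27 in naive mice, the lowest naive mean of the table, and 4.38 in trained ones, although 3 naive and 2 trained animals had a peak there.

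Splicing factor genes were lower in 44 of 54 listed regions (median difference -0.65), and 10 (18.5%) were higher. Over all listed regions in exactly 1 gene 50.3% were higher (median 0.16). Of the 54, 14 were lower by over 1 and 0 higher by over 1, against 9.90% and 1.97% of all listed regions. Introns held 37 of the 54, of which 35 were lower and 2 higher, against 28.7% higher among all listed intronic regions. In exons 8 of 17 were higher, against 62.1% of all exonic regions. Below a level of 10, where 32.9% of all listed regions were higher, 0 of 34 were, and at 10 or above, where 75.6% were, 10 of 20. Rbfox3, a neuronal splicing regulator known as NeuN, had 8.14 and 6.14, Rbfox1 10.17 and 8.42, and Mbnl2 9.52 and 7.68, each in an intron. Nova2 had 9.18 and 7.77 in its 3'UTR. The RNA-binding gene Hnrnpa3, of the hnRNP family, had 8.7 and -0.15 in an intron.

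**Figure D3:**
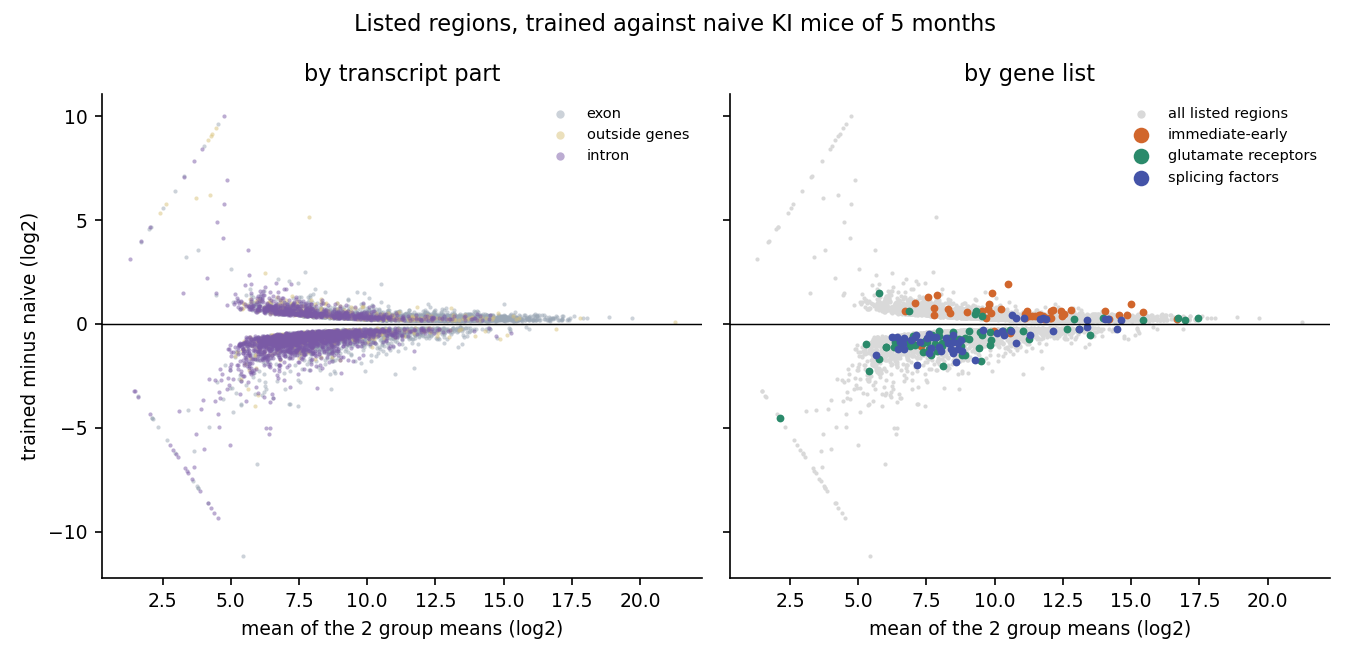
Difference of the deposited group means (trained minus naive, log2) against their mean (log2) for the 7830 listed regions, coloured by transcript part on the left and with 3 gene lists on the right. Diagonal rows of points at low level are regions with 1 group at the lowest mean of the table (21 higher and 30 lower), intronic regions lie mostly below 0, and 44 of 48 immediate-early regions lie above 0 while 54 of 65 glutamate receptor regions lie below.

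CREB and TrkB signalling genes had 18 of 31 regions higher (58.1%), against 50.3% of all listed regions in exactly 1 gene. At a level of 10 or above all 15 were higher, against 75.6% of all listed regions, and below it 3 of 16, against 32.9%. Crebbp, the histone acetylase that CREB recruits, had 8.69 and 6.50 in its CDS but 9.15 and 9.72 in an intron. The receptor gene Ntrk2 had 8.89 and 7.83 in an intron and 9.74 and 10.10 in its CDS, and Ntrk3 had 8.37 and 7.16 in one intron and 12.28 and 12.49 in another. Of the m6A machinery 8 of 24 genes had 13 listed regions, 6 higher (46.2%, against the same 50.3%) and 7 lower. An intron of the demethylase gene Fto had 7.17 and 6.11, and Prrc2a, which encodes a reader of m6A, had 10.84 and 10.08 in its CDS. Mettl3 had no peak in any of the 6 animals, and Htt had no listed region. Respiratory chain genes had 1 listed region, in Ndufs1.

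Cell type markers were not uniform. All 6 listed regions of choroid plexus markers, from 4 of 10 genes, were lower in trained mice, with a median difference of -1.44. The number of these markers with a peak was 5, 5 and 8 in naive and 4, 3 and 5 in trained animals, so the groups overlapped. Clic6, a chloride channel protein, had 12.22 and 9.82, Otx2, a homeobox factor, 9.32 and 7.60, Sostdc1, a secreted inhibitor of BMP and Wnt signalling, 9.51 and 7.84, and the first of 3 regions of the anti-ageing gene Kl 9.83 and 8.62. Fold enrichment over input was on average higher in trained mice in 4 of the 5 of these regions called in all 6 animals. The part of this tissue in the other results was not tested. Astrocyte and oligodendrocyte markers had 10 of 13 regions higher in each list, dentate granule cell markers 10 of 14, CA1 markers 9 of 13 and CA3 markers 3 of 6. Over all listed regions in exactly 1 gene 50.3% were higher. At a level of 10 or above, where 75.6% of all listed regions were higher, 8 of 10 astrocyte, 8 of 8 oligodendrocyte, 6 of 7 dentate and 8 of 11 CA1 regions were higher. Interneuron markers had 10 of 15 regions lower and 4 of 13 intronic regions higher, against 28.7% of all intronic ones. Lower regions included introns of Adarb2 and Erbb4. A 3'UTR region of Adarb2 had 8.87 in naive and 10.41 in trained mice, while another had 8.45 and 7.97. In the former the fold enrichments were 5.86, 2.66 and 4.32 in naive and 2.73, 2.42 and 13.88 in trained animals. Microglia, endothelium and striatum markers had 3, 2 and 2 listed regions.

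The largest differences of the table mostly lay at low levels and were not always mirrored by peak calls. Of the regions measured above the lowest mean in both groups, Mrpl38, for a mitochondrial ribosomal protein, had 1.39 in naive and 8.34 in trained mice in an intron, with a peak in 0 naive and 3 trained animals. Notch1, for a cell surface receptor, had 3.70 and 6.34 in its 5'UTR, also with a peak in 0 naive and 3 trained animals. Nsun2, for an RNA cytosine methyltransferase, had 1.86 and 7.63 in an intron although all 6 animals had a peak there, with fold enrichments of 4.93 to 5.98 in naive and 3.89 to 7.27 in trained animals. Further large positive differences were 4.89 in Grb14, 3.56 in Rab11b and 3.55 in Unc93b1. On the other side, Myh14, for a myosin heavy chain, had 6.36 and 1.07 in an intron with a peak in 3 naive and 0 trained animals. Fam78b, Sart1, Csrnp2 and 2500003M10Rik had differences of -6.87, -6.74, -6.14 and -6.03 with a peak in 2 or 3 animals of each group. At the lowest naive mean, Slc22a17, Dpp8, Nol7 and Camk2b had the largest differences, from 8.45 to 10.04. At the lowest trained mean, Chd3, Snap47, Shank1 and Hnrnpa3 lay between -11.17 and -8.85, and 2 or 3 trained animals had a peak in each of these 4 regions. At the 4 regions with the lowest naive mean, between 1 and 3 naive animals had a peak.

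Of 1336 genes with 2 or more listed regions, 364 had all regions higher, 454 had all lower and 518 had regions on both sides. In 8 genes the differences went beyond 1 both ways, namely Adarb2, Astn2, Epha6, Gria3, Homer1, Lrrc4c, Mctp1 and Ncoa3.

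Fold enrichment of IP over input was then tested in the 18860 regions called in all 6 animals. With limma and Benjamini-Hochberg adjustment, 0 regions (0.00%) passed an adjusted p of 0.05 in either direction, and the smallest adjusted p was 0.9995. At an unadjusted p under 0.05 there were 663 regions (3.52%), 334 higher and 329 lower in trained mice, and without centring of the animals 542 higher and 178 lower. In 1575 regions (8.35%) the 3 trained and 3 naive values did not overlap. The listed regions called in all 6 animals had a median difference in log2 fold enrichment of 0.26 where the mean level was higher by over 1 (29 regions) and of -0.22 where it was lower by over 1 (143 regions), against -0.016 over the 5252 listed regions called in all 6. By gene list, 13 of 35 such glutamate receptor regions (median -0.107), 6 of 29 splicing factor regions (median -0.165) and 9 of 31 presynaptic regions (median -0.065) had a higher mean fold enrichment in trained mice. Astrocyte and oligodendrocyte regions, mostly higher in level, were higher in fold enrichment in 6 of 9 (median 0.06) and 8 of 11 (median 0.07). Not all lists followed their levels. Of immediate-early regions, mostly higher in level, 20 of 44 were higher (median -0.039). Of choroid plexus regions, all lower in level, 4 of 5 were higher (median 0.285). The gene lists had between 5 and 194 regions called in all 6 animals and held 0 past the adjusted threshold. In each list 0 to 7 had an unadjusted p under 0.05, against 3.52% of all 18860 regions.

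The regions with the smallest p are given as values. C2cd4d, which encodes a small C2 domain protein, had fold enrichments in its CDS (chr3:94167024-94168392) of 4.28, 5.04 and 7.97 in naive and 14.35, 17.85 and 15.72 in trained animals, a log2 difference of 1.43 ± 0.326 (SE, limma adjusted p = 0.9995). All trained values lay above all naive ones. Pgpep1, for a peptidase that removes pyroglutamate, had 6.21, 8.32 and 8.53 in naive and 21.38, 17.12 and 19.54 in trained animals in its 3'UTR. Eif4g3, which encodes a translation initiation scaffold, had 4.24, 2.92 and 3.69 in naive and 8.14, 9.83 and 9.73 in trained animals in its 5'UTR. Ccdc23 and Thsd1 had log2 differences of 1.31 and 1.21. In the other direction, the CDS region of Ighmbp2, which encodes a helicase, had 4.76, 9.65 and 4.80 in naive and 2.05, 2.78 and 2.90 in trained animals. Sipa1l3, a relative of the synaptic Rap regulators, had 3.44, 2.65 and 3.15 in naive and 1.71, 1.78 and 1.77 in trained animals in its 3'UTR, a log2 difference of -0.89 ± 0.198 (SE). Differences of 2610019F03Rik, Ankrd24 and Ganc lay between -1.06 and -1.23. Groups did not overlap in any of these 10 regions, which is what the choice by p favours.

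Writers, erasers and readers of m6A showed no separation in fold enrichment either, each gene by its region called in most animals. Fto had 8 regions with a peak and Ythdc1 7, and fold enrichment in the other regions is not given here. The CDS region of Mettl14, for the partner of METTL3, had 4.83, 3.29 and 2.99 in naive and 3.79, 2.55 and 1.97 in trained animals (log2 difference -0.52 ± 0.297, SE). Fto had 3.90, 2.61 and 2.39 in naive and 3.27, 3.74 and 3.07 in trained animals in its CDS, and Alkbh5 2.67, 4.74 and 4.55 in naive and 3.66, 7.62 and 5.27 in trained animals. The reader gene Ythdf1 had 3.39, 6.85 and 3.67 in naive and 3.28, 3.79 and 2.78 in trained animals. Naive and trained values overlapped for each of these 4 genes, as they did for Wtap, Ythdf2, Ythdf3 and Ythdc1, whose log2 differences lay between -0.43 and 0.40. An intronic region of Htt had 7.63, 8.85 and 9.79 in naive and 11.22, 5.13 and 10.38 in trained animals.

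**Figure D4:**
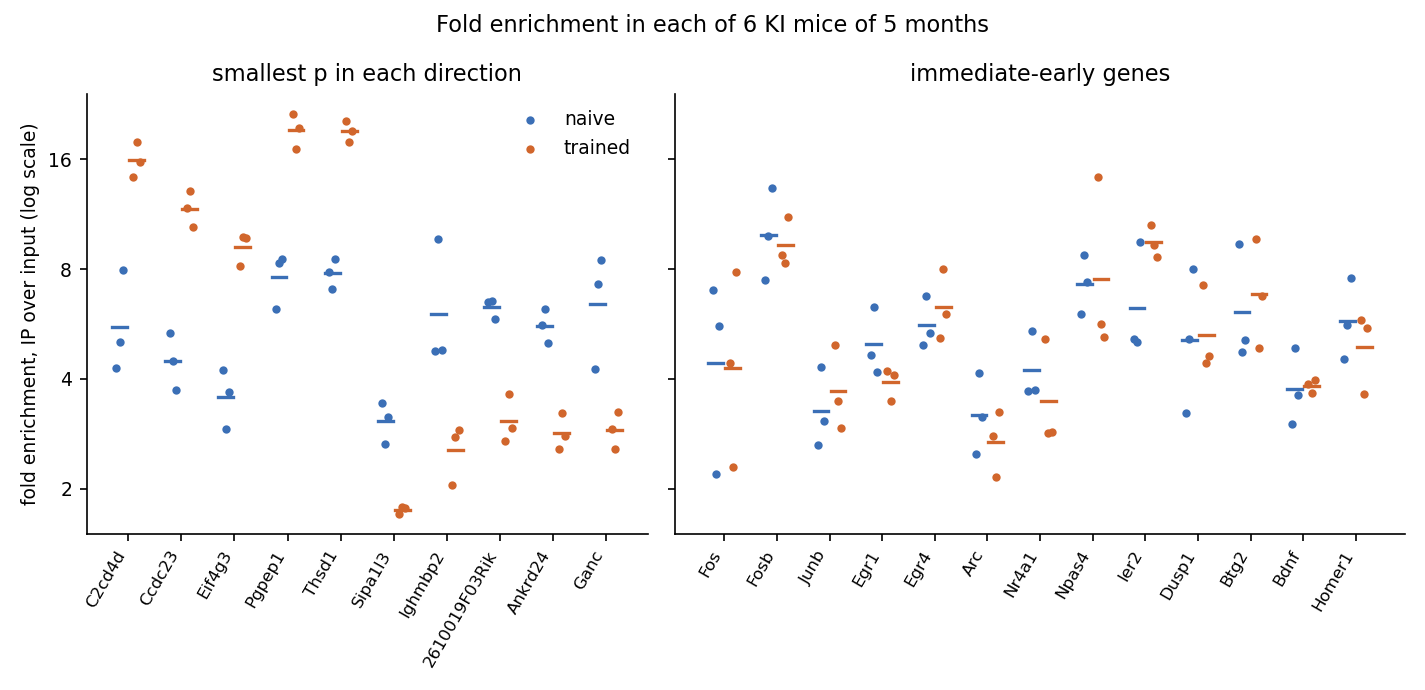
Fold enrichment of IP over input (log axis) in each of 3 naive (blue) and 3 trained (orange) KI mice of 5 months, with the geometric mean of each group as a bar. The 10 regions with the smallest p (left) do not overlap between groups, whereas in the 13 immediate-early regions (right) naive and trained values overlap.

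Peak calls that split the groups were few. In 168 of 54279 regions (0.310%) all 3 trained and no naive animal had a peak, named gained here, and in 206 (0.380%) all 3 naive and no trained animal, named lost. Regions called in 1 animal of the 6 only were far more frequent, with 6849 in a trained and 8405 in a naive animal. Gained regions lay in introns in 42.3% and outside protein-coding genes in 39.9% of cases, and lost regions in 47.6% and 24.3%, against 34.5% and 24% of all regions called in any of the 6. With any 1 animal left out the numbers were 256 to 670 gained and 393 to 750 lost, since fewer animals then had to match. Absence of a call does not show absence of the mark.

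By fold enrichment, the gained regions in exactly 1 gene were led by Ttbk1, a brain kinase that acts on tau, with 8.79, 8.09 and 7.48 in its 5'UTR (chr17:46623886-46624700). Snai2, a zinc finger repressor, followed with 7.83, 6.90 and 9.55 in its 3'UTR, and the Wnt effector Lef1 with 10.44, 5.98 and 8.04 in an intron. An intron of Nlgn1, a postsynaptic adhesion protein that binds neurexins, had 5.90, 5.98 and 11.06. Ppp1r3f, Gm14418, Rit2 and Gm17384 made up the other 4 of the leading 8. Lost regions were led by Dmrt2, a DNA-binding factor, with 6.25, 12.22 and 9.60 in its CDS (chr19:25747790-25748321), and by Pde4d, which breaks down cAMP, with 11.62, 5.64 and 10.07 in an intron. Introns of Nrxn3 (9.89, 5.78 and 6.48), of the contactin gene Cntn4 (7.03, 6.25 and 10.08) and of Rgs7, which speeds the turn-off of G proteins (8.95, 5.36 and 6.98), were lost as well. Prdm2, Fli1 and Man1c1 completed the leading 8, and 7 of these 8 lay in introns.

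Animals of the other conditions did not divide along these calls. Trained WT mice of 5 months had a peak in 21.4% ± 12.3 of the gained and 22.7% ± 5.19 of the lost regions (SD, n = 3), and naive WT mice of 5 months in 36.1% ± 9.09 and 40.1% ± 10.9. In KI mice of 8 months the shares were 55.0% ± 7.05 of the gained and 53.9% ± 6.20 of the lost regions in naive and 37.9% ± 9.79 and 32.4% ± 5.83 in trained animals. Both sets thus had higher mean shares in naive than in trained animals of these 2 comparisons, as had all regions called in any of the 6 KI animals, with 51.1% and 41.9% in WT and 63.1% and 51.2% in KI mice of 8 months. Ttbk1 was called in 1 naive and 1 trained WT animal and in 3 naive and 2 trained KI animals of 8 months. Of the 168 gained regions 0 were also called in all trained and no naive WT animals of 5 months and 1, in an intron of the cadherin gene Cdh19, in KI mice of 8 months. These groups had 22 and 26 regions called in all trained and no naive animals in all. For the 206 lost regions, beside 483 in WT and 970 in KI mice of 8 months called in all naive and no trained animals, the numbers were 2, one of them in the gene Plaa, and 9, among them regions of the potassium channel gene Kcnj6, the netrin-G gene Ntng2, the receptor gene Tgfbr2 and the lipid kinase gene Pik3c2b. These genes lie outside the rule for named genes and were chosen after their calls were seen.

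**Figure D5:**
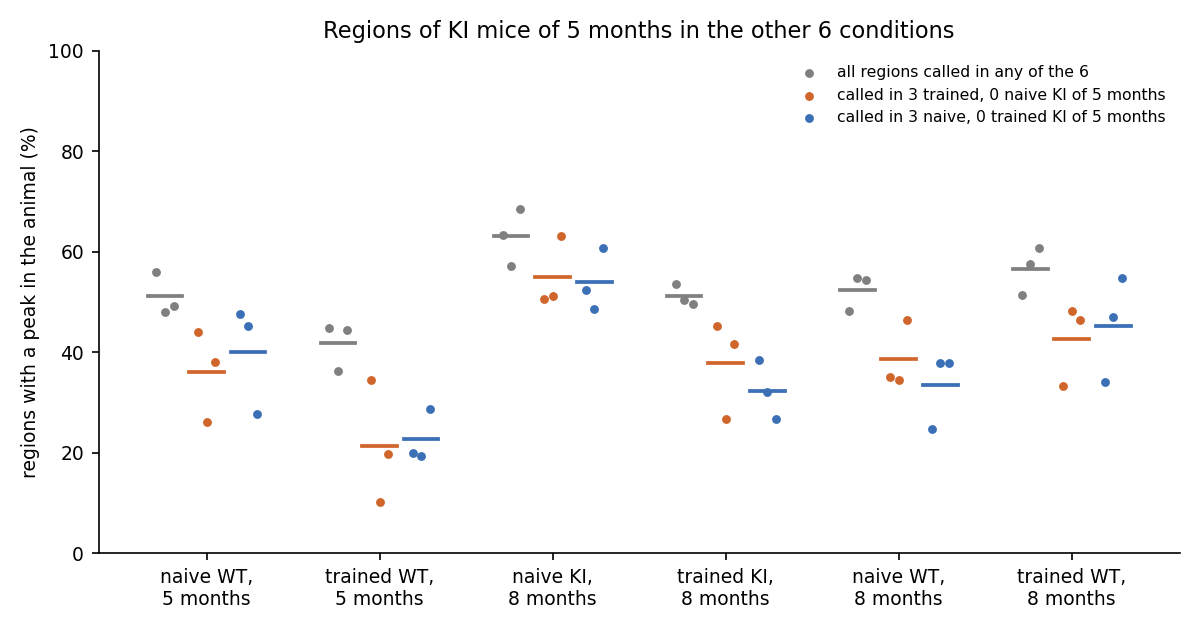
Share of regions with a peak (%, vertical axis) in each animal (points, with the group mean as a bar) of the 6 conditions other than KI at 5 months, for all regions called in any of the 6 KI mice of 5 months (grey), for gained regions (orange) and for lost regions (blue). Gained and lost regions have like shares in each condition, such as 21.4% and 22.7% in trained WT mice of 5 months.

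The training response in fold enrichment was also set against that of WT mice of the same age and of KI mice of 8 months by interaction terms in limma. In 12990 regions called in all 12 animals, 0 (0.00%) differed between KI and WT at an adjusted p under 0.05, with 459 at an unadjusted p under 0.05. Between 5 and 8 months in KI mice 0 of 16270 regions (0.00%) differed, with 682 at an unadjusted p under 0.05. A failed threshold does not show that the responses were alike. For Fos the log2 difference in fold enrichment between trained and naive animals was -0.12 ± 0.480 in KI and -0.54 ± 0.234 in WT mice of 5 months and -0.43 ± 0.367 in KI mice of 8 months (SE). For Arc it was -0.33 ± 0.247, -0.08 ± 0.259 and -0.62 ± 0.287. C2cd4d, with 1.43 in KI mice of 5 months, had 0.29 ± 0.400 in WT mice of 5 months and 0.01 ± 0.346 in KI mice of 8 months. Other regions with the smallest p mostly had the same sign where they were fitted elsewhere, and the share of same signs over all regions was not computed. Sipa1l3 and Ighmbp2 in WT mice and Ganc in KI mice of 8 months were not called in all animals and not fitted. In WT mice of 5 months 2610019F03Rik had -0.74 ± 0.261 and Ankrd24 -0.42 ± 0.273, without overlap of trained and naive animals. Pgpep1 had 0.66 ± 0.321 in KI mice of 8 months, also without overlap. The share of all regions without overlap was not computed for these comparisons, and in KI mice of 5 months it was 8.35%. The sign was opposite for Pgpep1 in WT mice (-0.39 ± 0.343), and in KI mice of 8 months for Ccdc23 (-0.12 ± 0.418) and Ankrd24 (0.28 ± 0.308). Trained and naive animals did not overlap for Ankrd24 there either.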

How the data were processed

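Hippocampal RNA was fragmented and pulled down with an antibody against m6A. Per the labels and methods, the authors trimmed reads (BBDuk), aligned them to mm9 with STAR 2.7.3a, kept unique reads outside repeats, called peaks of each IP against the input of the same animal with MACS2 2.2.6 and compared groups with DiffBind 2.8.0 and DESeq2. The deposited peak lists hold fold enrichment (a ratio), -log10 q (from the authors' MACS2 run) and the summit. The deposited table of differential regions holds group means on the log2 scale, used as the authors' means without SD, and fold changes, p-values and FDR, not used. Whether input reads were subtracted from those means is not given in the sources used here. The misplaced header row of that table names other conditions. Its 2 columns were taken as naive and trained KI mice of 5 months from the series design, and of all ordered pairs of the 8 conditions the difference in peak calls of this one correlated best with the difference of the columns (Spearman's rho 0.507, next 0.407). Its 25487 rows hold 7830 regions, named by the gene at their centre. The other 9 tables were not used.

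Peaks of 24 animals were joined with bedtools 2.31.1 (overlap of at least 1 bp) and the strongest peak of each animal taken. Summits were given to CDS, 3'UTR, 5'UTR or intron, in that order, of protein-coding genes of GENCODE M1 (NCBIM37, which is mm9), and sequences are from that genome. Log2 fold enrichment, centred on each animal's median, was fitted with limma 3.58.1 in R 4.3.3 (eBayes with trend, Benjamini-Hochberg). The fit was also run on simulated data with planted changes larger than those of the regions with the smallest p. That run does not show how often changes of their size would be found. Per-animal values were compared with 2-sided exact permutation tests. The methods state 1 approximate coverage for all libraries, and the files hold no read count per library, so precision rests on 3 animals a group, which the labels give as different animals. Named genes lie in exactly 1 protein-coding gene: 5 regions a direction by p where none passed, 8 by fold enrichment among the gained and the lost, 8 by difference of group means and 4 at the lowest mean, a fixed set of immediate-early and m6A genes, and 2 to 4 members a list. Comparison, members and the 20 gene lists (478 entries, Myrf, Nectin3 and Ptbp3 matched by older names) were chosen with earlier results of these data known. Alternatives were another centring, filter, joining, q, window and leaving out each animal. A result of the named genes that concerns a withheld item is not reported here.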

Additional observations from a re-analysis of the deposited data

Results flagged for a closer look

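Ankrd24, an ankyrin repeat gene, had opposite training differences in fold enrichment at the 2 ages of KI mice. At 5 months every trained animal lay below every naive one, with a log2 difference of -1.06, and at 8 months naive animals had 4.02, 4.15 and 4.05 and trained animals 5.90, 4.44 and 4.54, a log2 difference of 0.28 ± 0.308 (SE). The interaction was -1.35 ± 0.355 (SE), with a limma adjusted p = 0.9997 over all regions.

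Some regions were called in all animals of only one group in KI mice of 5 months and the other way round elsewhere. Of the gained regions 4 were called in all naive and no trained WT mice of 5 months, 1 of them in Uvrag, and 3 in all naive and no trained KI mice of 8 months, 1 of them in Col23a1. Of the lost regions 1, outside protein-coding genes, was called in all trained and no naive KI mice of 8 months. These differences between conditions were not tested. WT mice of 5 months had 22 gained and 483 lost regions of their own, and KI mice of 8 months 26 and 970.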

How the results depend on the processing

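Counts of 0 for fold enrichment and for both interactions held under every alternative run, with smallest adjusted p of 0.997 for training in KI, 0.347 for the interaction with WT and 0.372 for that with 8 months. Unadjusted p under 0.05 was met by 177 to 975 regions for training in KI. The 10 regions with the smallest p were chosen by p and had groups that did not overlap, so their direction under the alternatives says nothing of stability. Their log2 differences ranged in size from 0.779 to 1.70.

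Leaving out each animal in turn moved the difference in peaks per animal, -1046, to between -2986 and 1059, with the sign turned without naive animal 1 (1059) or trained animal 2 (687). The CDS share difference, 1.49 percentage points, lay between -0.064 and 2.52, and the intron share difference, -2.21, between -3.84 and 0.157, each turned without trained animal 1 (-0.064 and 0.157). Gained regions numbered 256 to 670 and lost regions 393 to 750. At a difference of over 2 the table held 38 higher and 154 lower regions. In exons, chosen after seeing the data, 14 of 20 glutamate receptor and 9 of 17 splicing factor regions were lower, whereas 62.1% of all exonic regions were higher. The causes were not tested. No paired analysis was possible because the labels give animal numbers and no replicate numbers shared between groups. Read counts of single libraries are not in the peak lists, and 3 animals a group limit every test.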
